A study of Mus musculus with 12 samples.

Results

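L1Md_T is a young subfamily of the mouse retrotransposon LINE-1 (L1), and its single genomic copies were examined here in testes with and without the piRNA factor MAEL. The copies were all repeat entries of the count table whose repeat name was exactly L1Md_T, which gave 23639 of 5138235 repeat entries. No measured value was used to choose them. Of these copies, 6556 (27.7%) had at least 1 count in at least 1 library and 17083 had none.

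The libraries came from whole testes of C57BL/6 mice at postnatal day 16, when the first wave of meiosis is under way. The animals were either *Mael*+/- (heterozygous, the controls) or *Mael*-/-. Each genotype gave 3 libraries of total RNA and 3 of ribosome footprints, the short RNA fragments that ribosomes shield from nuclease. Both kinds are labelled as replicates 1 to 3. By the authors' methods, total RNA was taken from aliquots of the testis extracts used for footprints. Libraries of a genotype with the same replicate number were taken to share an extract, which the labels do not state. Thus 4 groups of 3 libraries made up the 12 libraries. Cycloheximide, which holds ribosomes on mRNA, was present in all extracts. The labels do not say how many animals an extract came from, so p-values describe the spread between these samples.

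L1 elements move by copying an RNA intermediate back into the genome. A full-length element encodes ORF1p, an RNA-binding protein, and ORF2p, which carries the endonuclease and reverse transcriptase. Most genomic copies are fragments, and active copies of the same subfamily are nearly identical in sequence. In male germ cells, piRNAs and the DNA methylation they guide keep young L1 silent, and MAEL is needed for this silencing.

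The genotype labels were checked first with *Mael*. It had 5045, 4314 and 3800 RNA counts in *Mael*+/- replicates 1 to 3 and 1, 2 and 0 in *Mael*-/-, and 1294, 660 and 863 footprint counts against 0, 0 and 7. Gene counts lay between 13697267 and 27462358 per RNA library and between 7609932 and 13233565 per footprint library. Of 22 genes of the piRNA pathway, 21 were tested in each assay, 0 were called higher and *Mael* alone was called lower. Of the genes of 6 lists of cell type markers, *Adam2* and *Spag6* of the pachytene list were called lower in RNA and no others were called. Of the 12 pachytene genes, 8 were tested in RNA and 7 in footprints, and 0.0748% of all entries were called lower in RNA. Summed pachytene spermatocyte markers ran from 105 to 406 CPM in *Mael*+/- RNA and from 91.1 to 115 CPM in *Mael*-/- RNA, with the high value in *Mael*+/- extract 1. In footprints they ran from 96.3 to 452 CPM and from 79.5 to 87.0 CPM, without overlap, and their median log2 fold change was -2.45 in RNA and -2.22 in footprints. Summed early meiotic prophase markers ran from 903 to 2248 CPM in *Mael*+/- RNA and from 877 to 1278 CPM in *Mael*-/- RNA. Their high value was again in *Mael*+/- extract 1, and their median log2 fold change was -0.35 in RNA and -0.45 in footprints. CPM are counts per 1000000 gene counts, scaled by TMM factors within each assay. By the authors' methods gene counts cover whole mRNAs in RNA but coding sequence alone in footprints. Gene totals thus differ in kind between assays, which bears on every level of footprints set against RNA. The part of cell composition in the results was not tested, and in whole tissue fewer cells of a type and less RNA per cell cannot be told apart.

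The sum over all L1Md_T copies was higher in *Mael*-/- testes in both assays. RNA libraries held 1970, 1527 and 1760 L1Md_T counts in *Mael*+/- replicates 1 to 3 and 7161, 9505 and 8404 in *Mael*-/-. Footprint libraries held 403, 319 and 371 against 2937, 2562 and 1342. In neither assay did the genotypes overlap. The mean RNA level was 69.2 ± 15.0 CPM in *Mael*+/- and 433 ± 112 CPM in *Mael*-/- testes (SD, n = 3), a ratio of 6.25. Footprints had 40.1 ± 3.44 and 212 ± 49.0 CPM, a ratio of 5.30. The exact permutation test gave p = 0.1 in each assay, the smallest value that 3 libraries against 3 allow.

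The difference was spread unevenly over the copies. Copies were sorted by their count in a single *Mael*+/- RNA library, and the fold was then taken from the remaining libraries, so that the counts used for sorting did not enter it. Copies with 0 counts in that library were 8.55-fold to 11.7-fold higher in *Mael*-/- RNA, the range being over the choice of the *Mael*+/- library. Copies with 1 count were 5.76-fold to 9.10-fold higher, and those with 2 to 4 counts were 4.32-fold to 5.03-fold higher. The 44 to 51 copies with 5 or more counts were only 1.33-fold to 1.77-fold higher. Without L1Md_T_8025, the copy with the most counts, this last range was 1.42-fold to 1.96-fold. The fold thus fell with the level of the copy in control testes, and the ranges of the highest and lowest classes did not meet. Copies with 0 counts in the chosen *Mael*+/- library held 67.0 to 71.4% of the L1Md_T counts of *Mael*-/- RNA. They were 22638 to 22906 of the 23639 copies and were not silent in control testes, with 1340 to 1775 counts over the other *Mael*+/- RNA libraries.

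Footprints gave the same order over classes. Copies with 0 counts in a single *Mael*+/- footprint library were 5.95-fold to 6.33-fold higher in *Mael*-/- footprints of the whole group. Copies with 2 or more counts, 42 to 49 in number, were 2.63-fold to 3.22-fold higher. The class with 1 count lay between them, at 3.25-fold to 5.94-fold.

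**Figure D1:**
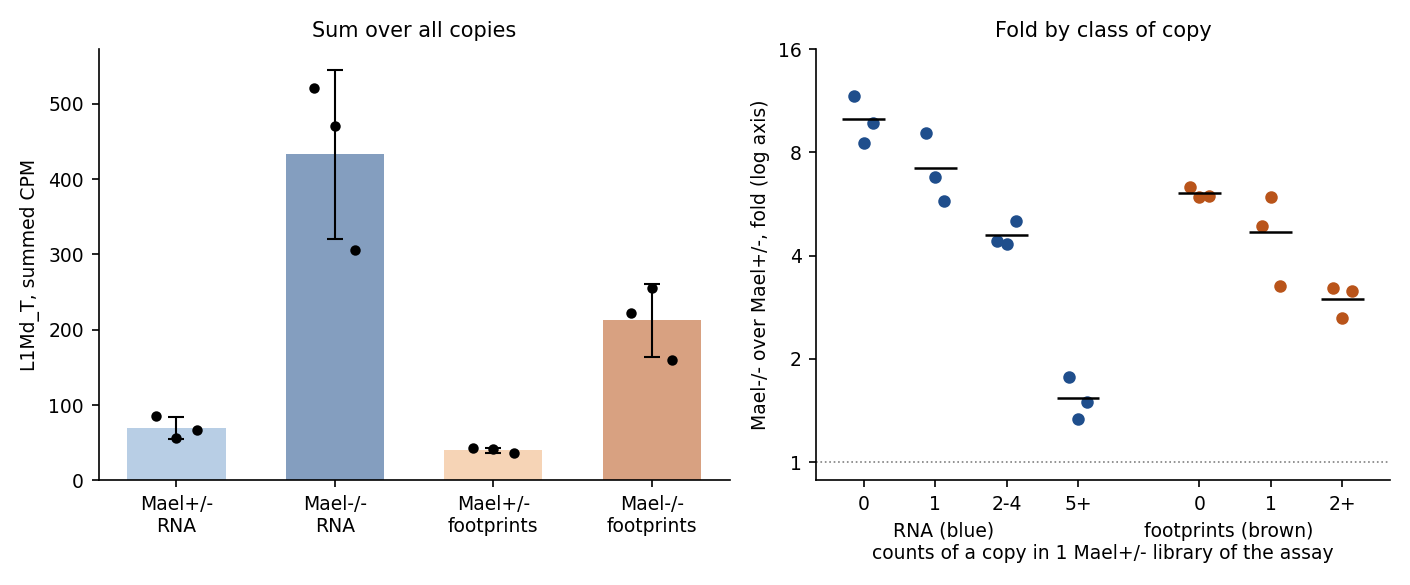
Left, summed L1Md_T level in CPM in the 4 groups, with bars at the mean, error bars of 1 SD and points for the 3 libraries. Right, fold of *Mael*-/- over *Mael*+/- on a log axis for copies sorted by their count in 1 *Mael*+/- library of the assay, with 1 point for each choice of that library and a line at the mean. The *Mael*-/- bars stand above the *Mael*+/- bars in both assays, and the fold falls from the class with 0 counts to the class with the most counts.

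Sorting the copies by RNA also ordered their footprints, which played no part in the sorting. The 60 copies with at least 10 counts over the *Mael*+/- RNA libraries had summed footprint levels of 5.09, 7.24 and 7.02 CPM in *Mael*+/- replicates 1 to 3 and 9.46, 9.08 and 7.12 CPM in *Mael*-/-. These groups overlapped, and the fold was 1.33. The 1919 copies with 1 to 9 such RNA counts had footprint levels of 10.8 ± 2.03 CPM in *Mael*+/- and 48.7 ± 12.5 CPM in *Mael*-/- testes (SD, n = 3), 4.52-fold higher. The 21660 copies with no *Mael*+/- RNA count had 22.8 ± 2.49 and 155 ± 35.4 CPM, 6.79-fold higher, and in these last classes the genotypes did not overlap.

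The copies with the most RNA in control testes were examined singly. L1Md_T_8025 had 192, 163 and 178 RNA counts in *Mael*+/- replicates 1 to 3 and 109, 206 and 225 in *Mael*-/-. It had 0 counts in all 6 footprint libraries. The RNA levels overlapped between genotypes, and edgeR gave a log2 difference of 0.33 (SE 0.18) with an adjusted p of 0.775. This single copy held 9.75, 10.7 and 10.1% of all L1Md_T counts of the *Mael*+/- RNA libraries and 1.52, 2.17 and 2.68% in *Mael*-/- RNA. Against 3 counts over each footprint group, its RNA level was at least 63.3-fold higher than its footprint level in *Mael*+/- testes and at least 92.9-fold higher in *Mael*-/- testes. Without it the sum of the other copies was 6.82-fold higher in *Mael*-/- RNA.

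The next copies in order of *Mael*+/- RNA level were not called either. L1Md_T_855 had 31, 36 and 26 counts in *Mael*+/- RNA and 15, 17 and 20 in *Mael*-/- RNA, at 1.21 ± 0.201 and 0.888 ± 0.185 CPM (SD, n = 3). L1Md_T_14658 had 20, 25 and 27 against 11, 12 and 19 RNA counts, at 0.934 ± 0.0782 and 0.696 ± 0.103 CPM. In none of the 5 copies with the highest *Mael*+/- RNA level did RNA differ between genotypes at an edgeR adjusted p under 0.05. L1Md_T_9779 had 28, 16 and 24 RNA counts against 13, 10 and 22, and L1Md_T_10470 had 22, 11 and 34 against 17, 15 and 32. Their log2 fold changes were -0.28 (SE 0.37) and 0.25 (SE 0.40).

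Their footprints differed from copy to copy. L1Md_T_14658, like L1Md_T_8025, had 0 footprint counts in all 6 libraries. L1Md_T_9779 had 3, 6 and 8 footprint counts in *Mael*+/- testes and 7, 3 and 3 in *Mael*-/- testes, and its footprint and RNA levels did not differ at an adjusted p under 0.05 in either genotype. L1Md_T_855 had 2, 2 and 3 against 2, 1 and 0 footprint counts, lower than its RNA by 2.21 (SE 0.46) on the log2 scale in *Mael*+/- testes (edgeR adjusted p 0.000443).

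Single copies were then tested for a difference in RNA between genotypes, in 1 fit with all genes and repeat copies. Of 32089 entries tested, 0.745% were called higher in *Mael*-/- RNA at an adjusted p under 0.05. Only 75 L1Md_T copies had enough counts to be tested, of which 60 were called higher, 0 were called lower (0.0748% of all entries) and 15 were not called. The filter needs counts in several libraries, which most copies reached only in *Mael*-/- testes, so the count of calls describes these copies and is no measure of the subfamily. At an unadjusted p under 0.05 edgeR had 1 copy lower and DESeq2 had 0. With every entry of at least 10 counts in all tested, 227 of 678 L1Md_T copies were called, all of them higher, against 0.731% of all such entries. Without *Mael*-/- RNA replicate 1 the number called under the default filter was 33.

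The called copies had few RNA counts in control testes. Of the 60, 7 had 0 counts over the 3 *Mael*+/- RNA libraries, 33 had 1 to 3 counts and 20 had more. For those 20 the log2 fold change ran from 2.42 to 5.11 with a median of 3.83, beside a median of 0.03 over all entries tested. Mean levels of the 60 in *Mael*-/- RNA ran from 0.444 to 3.02 CPM. Together they held 4.05% of the pooled L1Md_T counts in *Mael*+/- RNA and 15.8% in *Mael*-/- RNA, the counts by which they were called. Of the 15 copies not called, 10 had a log2 fold change above 0 and 5 below, from -1.15 to 3.03.

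Called copies that averaged 20 or more counts and whose genotypes lay apart were ordered by fold, and the first 5 are given singly. L1Md_T_8414 had 0, 1 and 2 RNA counts in *Mael*+/- replicates 1 to 3 and 57, 64 and 48 in *Mael*-/-. Its *Mael*-/- over *Mael*+/- ratio was 70.6, with a 95% counting interval of 23.8 to 346 (edgeR adjusted p 0.000257). L1Md_T_5576 had 5, 1 and 0 against 26, 71 and 26 RNA counts, higher by 4.64 (SE 0.71) on the log2 scale, with an adjusted p of 0.00551 in edgeR.

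L1Md_T_14152 had 1, 2 and 5 RNA counts against 35, 53 and 70, a log2 fold change of 4.56 (SE 0.40). L1Md_T_13326 had 6, 5 and 4 against 62, 62 and 33, a log2 fold change of 3.82 (SE 0.51). L1Md_T_4213 had 3, 3 and 5 against 33, 40 and 48, a log2 fold change of 3.77 (SE 0.37). The call and the separation of the genotypes were conditions of the choice of these 5 copies. They remained called under all 12 alternatives tried.

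Footprints of the same 5 copies were nearly absent. L1Md_T_8414 and L1Md_T_13326 had 0 footprint counts in all 6 libraries, so their *Mael*-/- RNA level was at least 29.1-fold and at least 27.01-fold higher than their footprint level. L1Md_T_14152 and L1Md_T_5576 had 2 footprint counts each, all in *Mael*-/- replicate 2. L1Md_T_4213 had 1, 3 and 0 footprint counts in *Mael*-/- testes and none in *Mael*+/- testes. Of all 60 copies called in RNA, 26 had 0 *Mael*-/- footprint counts, 20 had 1 to 3 and 14 had more, up to 43.

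**Figure D2:**
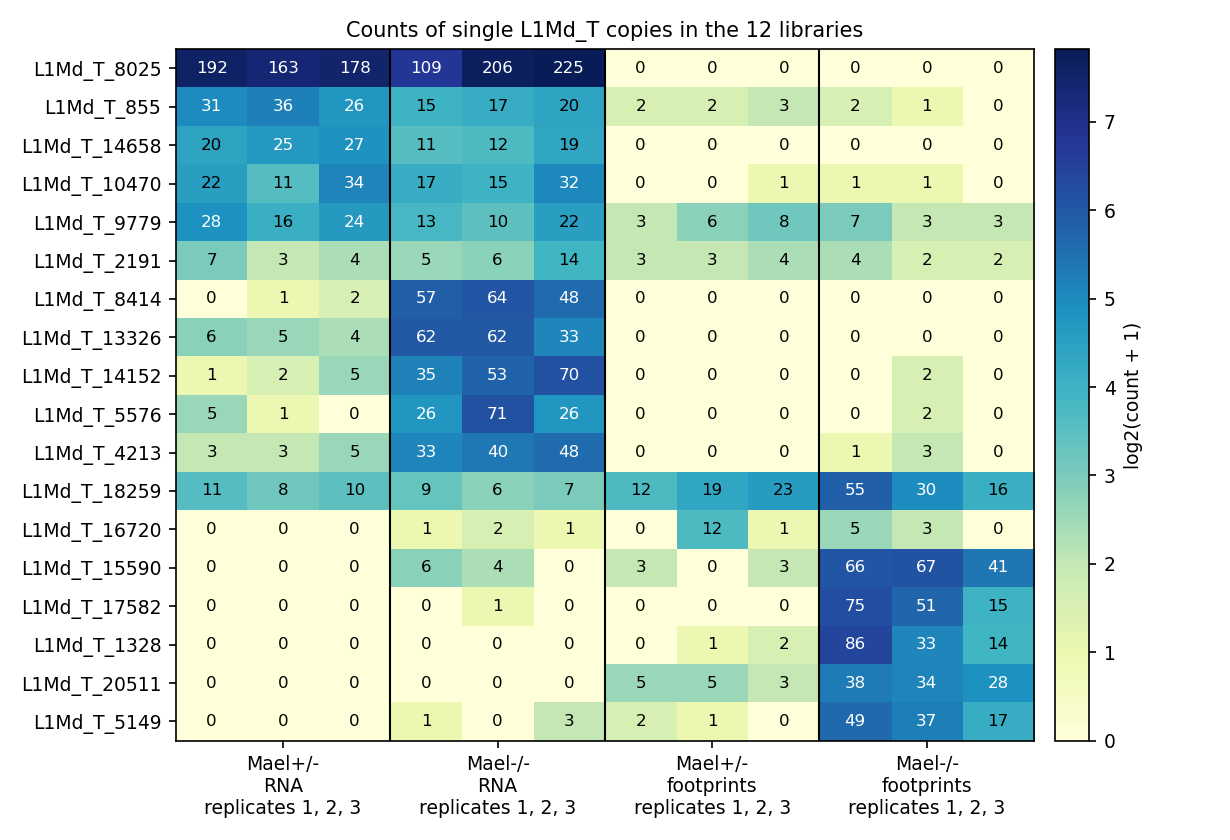
Counts of 18 single L1Md_T copies (lines) in the 12 libraries (columns, in blocks of 3 replicates), with the count written in each cell and the shade giving log2(count + 1). The upper copies hold RNA counts in both genotypes, those from L1Md_T_8414 to L1Md_T_4213 hold RNA counts mainly in *Mael*-/- testes, and those from L1Md_T_15590 down hold footprint counts mainly in *Mael*-/- testes and few or no RNA counts.

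The copies with the most footprints were others. In footprints, 0.168% of 19011 entries tested were called higher in *Mael*-/- testes, and all 10 called copies of the 11 L1Md_T copies tested were higher. None was lower, in edgeR or DESeq2, even at an unadjusted p under 0.05 (0.0579% of all entries were called lower). Over the *Mael*+/- footprint libraries, 1 of the 10 had 0 counts, 5 had 1 to 3 and 4 had more. They passed the filter through their *Mael*-/- counts, which fixes much of the direction, so these calls are no measure of the subfamily. The number of calls in footprints depended on the libraries fitted: without *Mael*+/- footprint replicate 3 there was 1 call, and without *Mael*-/- footprint replicate 1 or 2 there were 3. In each of these fits 10 of the 11 copies stayed at an unadjusted p under 0.05 in edgeR. Calls over all entries fell as well, from 43 to 14, 12 and 12. With all entries of at least 10 counts tested, 18 of 120 copies were called, all of them higher, beside 0.242% of such entries.

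L1Md_T_15590 had 3, 0 and 3 footprint counts in *Mael*+/- replicates 1 to 3 and 66, 67 and 41 in *Mael*-/-. It was higher by 4.59 (SE 0.47) on the log2 scale with an adjusted p of 0.00275 in edgeR, and the call held under all 12 alternatives. Its RNA counts were 0 in *Mael*+/- libraries and 6, 4 and 0 in *Mael*-/- libraries. Its mean *Mael*-/- footprint level of 5.51 ± 1.02 CPM (SD, n = 3) was the highest of any L1Md_T copy, while 1 of the 3 RNA libraries of these extracts had no count of it.

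L1Md_T_17582 had 0 footprint counts in *Mael*+/- testes and 75, 51 and 15 in *Mael*-/- testes, at least 40.7-fold higher (edgeR adjusted p 0.0179), with 1 RNA count in all 6 RNA libraries. L1Md_T_1328 had 0, 1 and 2 against 86, 33 and 14 footprint counts and no RNA count. Its ratio was 38.4, with a 95% counting interval of 12.9 to 188. The *Mael*-/- replicates of both copies were far apart. L1Md_T_1328 lost its call in 5 of the 12 alternatives, those that left out any footprint library but *Mael*-/- replicate 3, with log2 differences of 4.36 to 5.80 over all 12. L1Md_T_17582 lost its call in 3, without *Mael*+/- footprint replicate 3 or *Mael*-/- footprint replicate 1 or 2, with 7.70 to 8.77 over all 12.

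L1Md_T_20511 had 5, 5 and 3 against 38, 34 and 28 footprint counts and no RNA count, higher by 2.71 (SE 0.36) on the log2 scale with an adjusted p of 0.0147 in edgeR. Its call was lost in 3 of the 12 alternatives, without *Mael*+/- footprint replicate 3 or *Mael*-/- footprint replicate 1 or 2, with log2 differences of 2.42 to 2.93 over all 12. Its *Mael*-/- footprint level was at least 64.6-fold higher than its RNA level. L1Md_T_5149 had 2, 1 and 0 against 49, 37 and 17 footprint counts, beside 4 RNA counts in *Mael*-/- testes. Its footprint call was lost in 2 alternatives, without *Mael*+/- footprint replicate 3 or *Mael*-/- footprint replicate 1. L1Md_T_18259, the footprint copy tested but not called, had 12, 19 and 23 against 55, 30 and 16 footprint counts and 11, 8 and 10 against 9, 6 and 7 RNA counts. Its genotypes overlapped in both assays. The other copies with the highest *Mael*+/- footprint level were low, with 3, 3 and 4 footprint counts for L1Md_T_2191 and 0, 12 and 1 for L1Md_T_16720, whose level rested on replicate 2.

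Whether footprints changed beyond RNA could not be tested for single copies with the default filter, since 0 copies passed it in both assays. With at least 10 counts in each assay, 44 copies were tested for the interaction of genotype and assay, and edgeR called 0 of them (0.00207% of all such entries were called), with 1 at an unadjusted p under 0.05. For the sum over all copies, the log2 difference of footprints from RNA in an extract was -0.998, -0.44 and -0.88 in *Mael*+/- replicates 1 to 3 and -1.23, -0.88 and -0.94 in *Mael*-/-. The genotypes overlapped (exact permutation test, p = 0.4).

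RNA and footprints of a genotype were next compared copy by copy. Copies with counts in both assays held 47.5% of the RNA counts and 72.5% of the footprint counts of L1Md_T in *Mael*-/- testes, and 24.7% and 43.1% in *Mael*+/- testes. In *Mael*-/- testes 586 copies had at least 10 RNA counts over the 3 libraries, and 236 of them (40.3%) had 0 footprint counts. Conversely, 100 copies had at least 10 footprint counts, and 25 of them (25.0%) had 0 RNA counts. Both assays reached 10 counts in 27 copies. Over all L1Md_T copies, the *Mael*-/- footprint libraries held 6841 counts beside 25070 in *Mael*-/- RNA. Among genes with 10 to 49 RNA counts, 1.90% had 0 footprint counts, and among genes with 10 to 49 footprint counts 0.317% had 0 RNA counts. For all repeat copies with at least 10 counts the shares were 20.4% and 23.8%, and these differences were not tested.

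**Figure D3:**
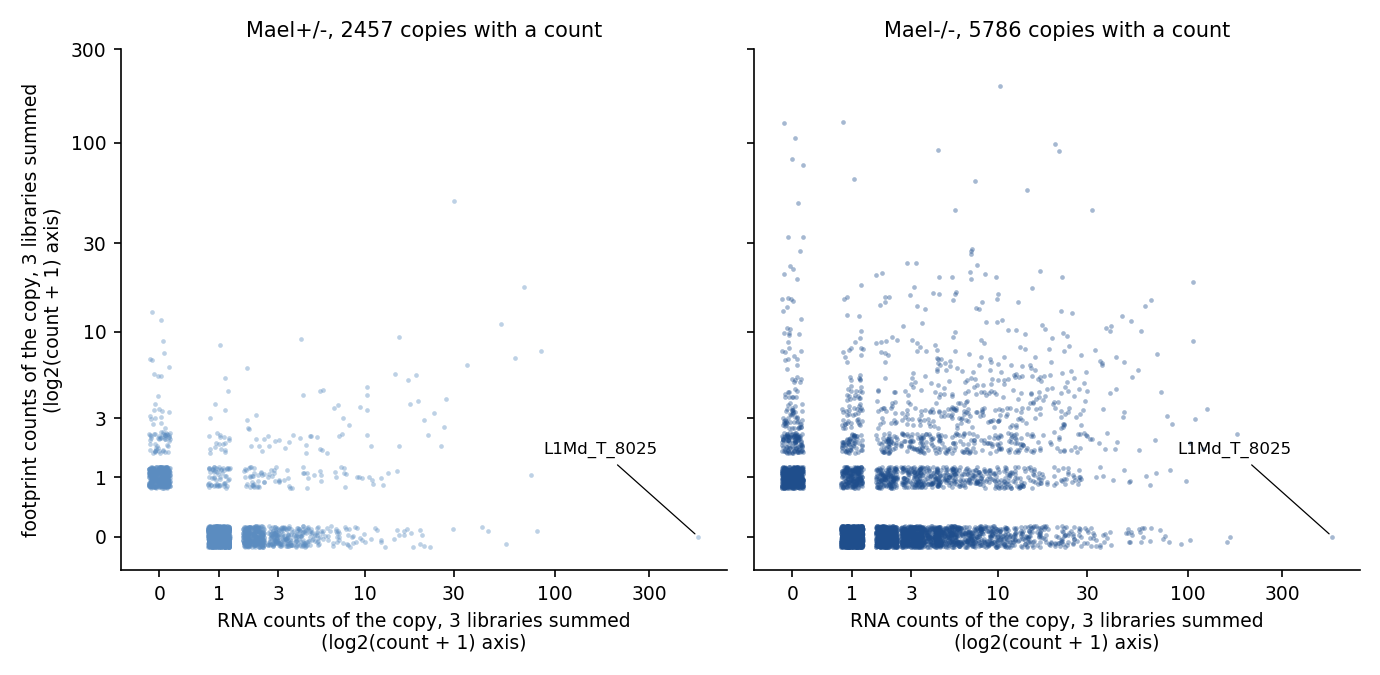
Each point is an L1Md_T copy, at its RNA counts (horizontal) and footprint counts (vertical) summed over the 3 libraries of a genotype, on log2(count + 1) axes, with points shifted slightly at random so that copies with equal counts can be told apart. Of the copies with counts, 219 of 2457 in *Mael*+/- testes and 1540 of 5786 in *Mael*-/- testes had counts in both assays, and 27 copies in *Mael*-/- testes had at least 10 counts in each.

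To compare libraries without choosing copies and measuring them in the same reads, the 50 copies with the most counts in a library were measured in the other libraries. Those of a *Mael*-/- RNA library held 14.8 to 16.6% of the L1Md_T counts of the other *Mael*-/- RNA libraries but 1.43 to 2.26% of those of *Mael*-/- footprint libraries. Those of a *Mael*-/- footprint library held 25.4 to 28.9% of the counts of other *Mael*-/- footprint libraries and 1.21 to 1.80% of those of *Mael*-/- RNA libraries. The most counted copies of an assay thus recurred between extracts and held little of the counts of the other assay. The part of the assays themselves in this was not tested: RNA reads were 75 bases long and footprints 28 to 34, and how reads that match several copies were assigned is not stated.

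Libraries thinned to the same 1342 counts gave a like picture. Between *Mael*-/- libraries of the same assay, 33.5 to 35.3% of the copies with counts were shared, as a share of either library. Between a *Mael*-/- RNA and a *Mael*-/- footprint library, the shared copies were 17.7 to 18.8% of those of the RNA library and 21.2 to 22.4% of those of the footprint library. The ranges did not overlap.

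Copies chosen in *Mael*+/- RNA held a larger share of the other assay of their genotype. The 50 copies with the most counts in a *Mael*+/- RNA library held 28.1 to 34.4% of the counts of the other *Mael*+/- RNA libraries and 10.9 to 18.1% of those of *Mael*+/- footprint libraries. In *Mael*-/- testes the same copies held 6.28 to 9.36% of RNA counts and 2.62 to 4.32% of footprint counts. Without L1Md_T_8025, the first of these ranges was 20.3 to 26.9%. The *Mael*+/- footprint libraries had too few counts to choose 50 copies. Copies chosen in *Mael*-/- footprint libraries kept the assays apart in control testes too. Those of a *Mael*-/- footprint library held 11.4 to 15.4% of *Mael*+/- footprint counts and 0.852 to 2.95% of *Mael*+/- RNA counts. Those of a *Mael*-/- RNA library held 15.2 to 24.6% of *Mael*+/- RNA counts and 0.809 to 6.20% of *Mael*+/- footprint counts. Without L1Md_T_8025 they held 6.07 to 15.9% and 0.809 to 6.20%, so for these copies the ranges of the assays then overlapped.

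**Figure D4:**
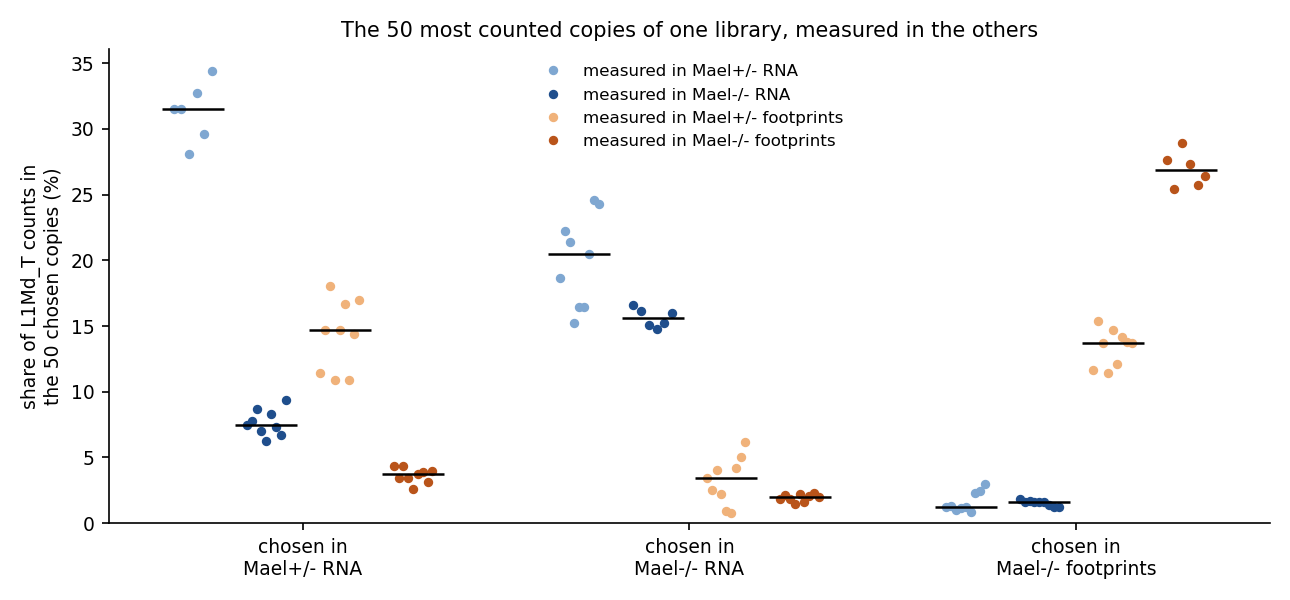
Share of L1Md_T counts (%) held in each library by the 50 copies with the most counts in another library, with the library of choice grouped along the horizontal axis and the colour giving the group in which the share was measured. Points are pairs of libraries and lines are medians. Copies chosen in *Mael*-/- RNA reach 16.6% in RNA of the same genotype and at most 2.26% in its footprints.

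Footprints and RNA of a copy were also compared within each genotype in the fit over all 12 libraries, a comparison added after the table had been seen. In *Mael*-/- testes 40.4% of 35659 entries were called lower and 21.2% higher in footprints. Of the 75 L1Md_T copies tested in RNA, 67 were lower in footprints, 1 was higher and 7 were not called. All 11 copies tested in footprints were higher there. The filters of each assay chose these copies by the counts compared, which fixes much of the direction. The exception among the RNA copies, L1Md_T_22638, named after its values were seen, had 9, 12 and 11 RNA counts and 12, 16 and 15 footprint counts in *Mael*-/- testes. Its footprint level was higher by 1.37 (SE 0.43) in log2, at an adjusted p of 0.0101 in edgeR.

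In *Mael*+/- testes, where 39.6% of entries were lower and 21.0% higher in footprints, 13 of the 75 copies were lower and 7 of the 11 were higher. These 20 calls were 13 without *Mael*+/- footprint replicate 2. L1Md_T_18259 was among those 7, higher in footprints by 2.36 (SE 0.42, adjusted p 7.77e-05 in edgeR) in log2, and by 3.03 (SE 0.41, adjusted p 3.36e-06 in edgeR) in *Mael*-/- testes. Its order of assays was thus the same in both genotypes.

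RNA of L1Md_T was less concentrated in few copies in *Mael*-/- testes. In RNA libraries thinned to 1527 counts, the 10 copies with the most counts held 20.9 ± 1.52% in *Mael*+/- and 7.56 ± 0.464% in *Mael*-/- libraries (SD, n = 3). Without L1Md_T_8025 the shares were 12.8 ± 1.41% and 6.07 ± 0.306%. It took 126 ± 23.6 copies to hold 50% of the thinned counts in *Mael*+/- RNA and 255 ± 9.14 in *Mael*-/- RNA. The genotypes did not overlap in any of these measures, and each had an exact permutation p of 0.1, the smallest possible (0.141 adjusted over 24 measures of spread).

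In footprints the shares differed by less than the spread between replicates. Thinned to 319 counts, their 10 largest copies held 16.1 ± 3.59% in *Mael*+/- and 17.1 ± 1.08% in *Mael*-/- libraries (SD, n = 3, exact permutation p = 0.9). At this depth many copies have a single count, which limits what the shares can show.

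**Figure D5:**
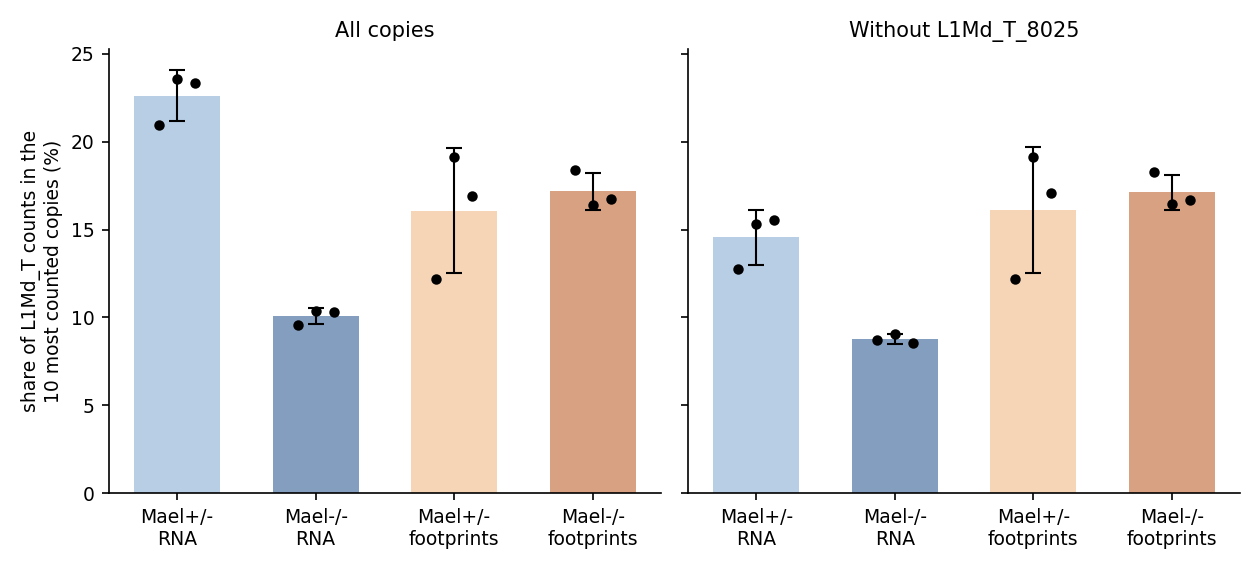
Share of L1Md_T counts (%) in the 10 copies with the most counts, with every library thinned to 319 counts, for all copies (left) and without L1Md_T_8025 (right). Bars are means, error bars 1 SD and points the 3 libraries. The *Mael*-/- RNA bar is the lowest in both panels.

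Other L1 subfamilies were used for comparison. L1Md_A, another young subfamily, was 7.44-fold higher in RNA and 4.77-fold higher in footprints of *Mael*-/- testes, and L1Md_Gf was 5.52-fold and 6.17-fold higher. The older L1Md_F2 differed by 1.49-fold and 1.45-fold. The log2 ratio of L1Md_T to L1Md_F2 was higher in *Mael*-/- testes by 2.06 in RNA and 1.84 in footprints, without overlap (exact permutation p = 0.1, 0.15 adjusted over 6 ratios). The ratio to L1Md_A differed by -0.26 in RNA (p = 0.1 by exact permutation, 0.15 adjusted) and 0.11 in footprints (exact permutation p = 0.6). That to L1Md_Gf differed by 0.20 (exact permutation p = 0.1, 0.15 adjusted) and -0.29 (exact permutation p = 0.3).

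L1Md_A also had 0 copies tested in both assays, with 36 of 41 called higher in RNA and 3 of 3 in footprints. L1Md_F2 had 7 copies tested in both and 10 of 101 called higher in RNA. Over all entries 0.745% were called higher in RNA and 0.168% in footprints. These counts depend on which copies passed the filter and in which genotype they had counts, so they are no measure of the subfamilies. In *Mael*-/- testes 44.6% of L1Md_A copies with at least 10 RNA counts had 0 footprint counts, beside 40.3% for L1Md_T and 27.5% for L1Md_F2. Of copies with at least 10 footprint counts, 25.7% of L1Md_A, 25.0% of L1Md_T and 21.3% of L1Md_F2 copies had 0 RNA counts, near the 23.8% of all repeat copies. Differences between these shares were not tested.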

How the data were processed

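The authors removed reads matching ribosomal DNA with Bowtie 1.2.2 from footprint libraries alone, while RNA libraries had ribosomal RNA depleted during preparation. They aligned reads of both assays to mm10 with STAR 2.6.0c and counted with featureCounts (Subread 1.6.4). Raw counts, in whole numbers, were deposited for 20620 genes and 5138235 repeat copies. How reads matching several copies were assigned, the strand setting for repeats and the collapsing of duplicates are not stated, so intervals and floors cover counting error only. The deposited result tables of the authors hold DESeq2 1.24.0 log2 fold changes, standard errors and p-values, and were not used. The table names copies without position or length, so they were not placed in the genome, and planned classes by length or place were not formed.

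All genes and copies were fitted together with edgeR 4.0.16 (quasi-likelihood, default filter, Benjamini-Hochberg adjustment, call at 0.05). CPM use gene totals and TMM factors of filtered genes within an assay. RNA and footprints were each fitted over 6 libraries, and the interaction and the contrasts of assays over 12. Single values were tested by two-sided exact permutation of 3 libraries against 3. Shares were thinned over 200 draws, and overlaps over 50. A fold against 0 counts used a floor of 3 counts over the group, and ratios with 1 to 3 counts have exact 95% intervals. Counts were also simulated with the same dispersion for every entry. On these the RNA fit over 32089 entries recovered 24% of 2-fold and 81% of 4-fold changes with 5.41% false calls. The footprint fit over 19011 entries recovered 37% and 96% with 2.92%. Whether these rates hold for real copies, whose replicates can lie far apart, was not tested.

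RNA and footprints with the same replicate number, taken as 1 extract, deviated together in *Mael*+/- testes (r 0.615 to 0.772 across 14374 genes). In *Mael*-/- testes they did so only weakly (r 0.228 to 0.240). Genotypes with the same replicate number did not in every pair (r -0.0173 to 0.216), and the *Mael*-/- values lay near the highest of these.

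Named were *Mael*, up to 5 called copies per contrast and direction with the largest fold, 20 or more counts on average and genotypes apart, the 5 copies with the highest mean CPM in each group, and called piRNA pathway genes. The copies, lists and rules were chosen with earlier results of these data known. Alternatives were DESeq2 1.42.0, other size factors and filters, repeat copies alone, a replicate block and leaving out each library.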

Additional observations from a re-analysis of the deposited data

Results flagged for a closer look

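The concentration of L1Md_T counts moved in opposite directions between assays in the 2 genotypes. With all libraries thinned to 319 counts, the share of the 10 largest copies in footprints minus that in RNA of the same extract was -8.76, -4.43 and -6.40 percentage points in *Mael*+/- replicates 1 to 3 and 8.84, 6.04 and 6.40 in *Mael*-/-. Measures were flagged when all extracts of a genotype shared a sign opposite to that of the other genotype. The signs and the p-value thus follow from that rule. The difference of the means was 13.6 percentage points (exact permutation p = 0.1, the smallest possible with 3 against 3, and 0.141 adjusted over 24 measures of spread). Without L1Md_T_8025 the *Mael*+/- values were -0.61, 3.801 and 1.505, the *Mael*-/- values 9.59, 7.37 and 8.15, and the difference 6.81, so the sign in *Mael*+/- testes rested on that copy, and the genotypes still did not overlap.

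The number of copies that held 50% of the thinned counts, footprints minus RNA, was 28.8, 11.9 and 17.0 copies in *Mael*+/- and -38.3, -30.3 and -32.4 in *Mael*-/-, a difference of -52.9. The number of copies with any count also differed by -52.9, so at this depth the measure only counts distinct copies. Without L1Md_T_8025 the *Mael*+/- values were 7.2, -8.6 and -1.7 and the *Mael*-/- values -41.2, -35.5 and -37.6, so the sign in *Mael*+/- testes rested on that copy here too, and the genotypes did not overlap.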

How the results depend on the processing

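Testing every entry with at least 10 counts moved the number of called copies from 60 to 227 in RNA, from 10 to 18 in footprints, from 20 to 42 for footprints against RNA in *Mael*+/- and from 79 to 336 in *Mael*-/- testes, since far more copies were tested. DESeq2, other size factors, repeat copies alone and a replicate block gave 59 to 63 calls in RNA and 10 in footprints. The block by replicate number gave 62 and 10 calls. Its extract version gave 22 and 79 for the contrasts of assays. Leaving out each replicate gave 33 to 61 calls in RNA, the fewest without *Mael*-/- RNA replicate 1, and 1 to 9 in footprints, the fewest without *Mael*+/- footprint replicate 3, 13 to 18 and 73 to 79 for the contrasts of assays, and 0 for the interaction in each fit.

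The difference in the share of the 10 largest copies was -13.4 percentage points in RNA, -6.71 without the largest copy and -14.3 to -12.9 with a replicate left out. In footprints it was 0.97, -0.0924 without thinning and -1.01 to 2.49 with a replicate left out, negative without *Mael*+/- replicate 1. The number of copies for 50% of the counts differed by 129 in RNA, 283 without thinning and 98.5 without the largest copy (119 to 142 with a replicate left out). In footprints it differed by -4.48, 74.3 without thinning and -11.7 to 4.82 with a replicate left out. The difference of footprints minus RNA in the top 10 share was 13.6, 6.81 without the largest copy and 12.5 to 14.7 with an extract left out.

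The log2 ratios to other subfamilies kept their sign with each replicate left out. In RNA they ran from -0.35 to -0.21 for L1Md_A, from 0.16 to 0.26 for L1Md_Gf and from 1.92 to 2.16 for L1Md_F2. In footprints they ran from 0.0074 to 0.21, from -0.47 to -0.11 and from 1.73 to 1.98. The log2 difference of the sum lay between 2.48 and 2.86 in RNA and between 2.24 and 2.58 in footprints. Contrasts of assays, folds by class, thinning of RNA to footprint depth and these sums were added after the data were seen. Alternatives on long copies were not run, since the table gives no lengths.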
